A study of Bos taurus with 2 samples.

Results

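Cells with high GATA3 that lacked placental RNA were examined in day 25 bovine embryos carrying bovine embryonic stem cells (bESC). GATA3 is a zinc-finger transcription factor. A cell was a member when it had 500 or more detected genes, 4 or more GATA3 UMIs (barcoded RNA molecules, each counted a single time) and under 5 UMIs summed over PAG2, PAG8, PRP1 and PRP4. The first pair encode pregnancy-associated glycoproteins and the second pair prolactin-related proteins of the ruminant placenta. These 5 genes chose the cells, so their values are description only. The rule found 877 members among 4437 deposited cells, of which 4359 had 500 or more detected genes. Replicate 1 held 380 members, or 19.6% of its 1939 such cells (exact 95% binomial interval 17.9% to 21.4%). Replicate 2 held 497, or 20.5% of 2420 (18.9% to 22.2%). The mean share was 20.1% ± 0.664 (SD, n = 2), and intervals cover counting error only.

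The embryos were flushed from the uterus, digested with papain and DNase, sorted, and loaded on a 10x Genomics 3' droplet system. The 2 samples are replicates of 1 group with 1 label, and the labels name no other treatment, strain or control. Nothing in the labels says that the replicates came from separate embryos, how many embryos were pooled, what the sort selected or which cells carried the GFP sequence. The p-values therefore measure only how far class differences varied between these samples, with information lent by other genes. That variation may be technical. All comparisons are between classes of cells within both suspensions.

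As background, GATA3 is best known in trophoblast, where it acts with GATA2, and in T lymphocytes. In vertebrate embryos it also acts in sympathetic neurons and adrenal chromaffin cells, in serotonin neurons of the hindbrain, in inhibitory interneurons of the spinal cord, in the ear and in the kidney duct. Sympathetic neurons use PHOX2A and HAND2 as transcription factors and TH and DBH as enzymes of noradrenaline synthesis. Serotonin neurons use TPH2 and DDC to make serotonin, SLC18A2 to load it into vesicles, SLC6A4 to take it up again, and FEV, LMX1B and GATA2 as transcription factors.

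Members had a median of 6 GATA3 UMIs in each replicate and at most 41. GATA3 stood at 927 and 878 CPM (UMIs summed over the cells of a class and scaled to the same total in every class) in replicates 1 and 2. In 28 erythroid cells, where globins took 20% or more of the UMIs, it stood at 13.2 and 9.31 CPM. The 27 cells with 5 or more placental UMIs had 277 and 191 CPM, and 8 of them reached 4 GATA3 UMIs. The trophoblast factors TFAP2C (1 and 0 UMIs) and CDX2 (0 and 1 UMIs) were at or near 0 in members, whereas GATA2 was not.

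The members were set against cells with no GATA3 UMI (661 and 933 cells) and shown beside cells with 1 to 3 GATA3 UMIs (671 and 895). Each class met the other conditions and lay in the members' range of total UMIs in its replicate, 1590 to 16313 and 774 to 15705. Within that range members were deeper, with medians of 8023.5 and 8549 UMIs against 4347 and 4341 in GATA3-zero cells. Ribosomal protein genes took a median of 8.40% and 14.2% of members' UMIs and 3.41% and 4.37% of those of GATA3-zero cells. The part of this depth and ribosomal difference in the results was not tested beyond the alternatives named below. No barcode that occurred in both libraries belonged to a member. The members' summed counts differed between replicates by more than sampling noise (chi-square of 6.03 per degree of freedom over 13215 genes).

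Members carried more RNA of many neuron marker genes and of sympathetic genes, and much less of connective tissue genes, than GATA3-zero cells. Of 13059 genes tested, 3491 (26.7%) passed edgeR's quasi-likelihood test at an adjusted p under 0.05. Of these, 1818 (13.9%) were higher and 1673 (12.8%) lower in members. Counts for gene lists below should be read against these shares. With replicate not used as a block, 1424 passed, and the split turned to 572 higher and 852 lower. When only cells with 2 or more UMIs of the neural genes SOX2, DCX and STMN2 were kept in each class, 1638 (13.3%) passed, 877 (7.12%) higher and 761 (6.18%) lower. With 1 GATA3-zero cell matched to each member on total UMIs, 2157 (16.6%) passed, 1025 (7.88%) higher and 1132 (8.71%) lower.

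GATA2, the closest relative of GATA3, had the highest fold change of the 12 higher genes that the naming rule picked at 50 CPM or more. TH, DBH and LOC508098 had higher ones but lay under that level or outside the rule. GATA2 stood at 63.9 and 61.1 CPM in members, 18.5 and 14.6 in GATA3-low cells and 7.67 and 7.16 in GATA3-zero cells. The log2 difference between members and GATA3-zero cells was 3.15 (SE 0.173, adjusted p = 2.01e-11, edgeR). Both replicates gave the same order of the 3 classes, with no overlap. GATA2 has no part in the rule.

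The Notch ligand DLL3, a marker of newly forming neurons, stood at 45.2 and 64.5 CPM in members against 11.9 and 6.37 CPM in GATA3-zero cells (log2 difference 2.74, SE 0.256). The neuronal adhesion gene CNTN5 stood at 253 and 209 CPM against 46.9 and 43.8 CPM (2.41, SE 0.0992). The microtubule regulator STMN2, an abundant neuron marker, stood at 997 and 1111 CPM against 313 and 338 CPM (1.77, SE 0.0655). All 3 were higher in members in both replicates, with edgeR adjusted p-values of 1.69e-05, 1.64e-13 and 6.79e-14. The other 8 of the 12 named genes were PCDH15, DIRAS3, CA10, MGC157368, EEF1A2, SCG2, FMN1 and EDIL3, with log2 differences from 1.86 to 2.39. Among them CA10 encodes a ligand of neurexins and SCG2 a granin of secretory vesicles. All 12 were again higher in each replicate taken alone. Few members carried CNTN5, DLL3 or CA10. Unthinned, CNTN5 had a UMI in 15.0% and 15.7% of members, against 6.20% and 4.93% of GATA3-zero cells. For DLL3 the shares were 8.16% and 8.65% against 3.48% and 2.47%, and for CA10 12.1% and 12.7% against 3.93% and 4.61%. In members with 2 or more SOX2 UMIs CNTN5 stood at 40.0 and 44.7 CPM, against 681 and 686 CPM in members with none. DLL3 did not pass at 6 or more GATA3 UMIs (adjusted p = 0.0761) or in cells under 10% ribosomal protein counts, where its log2 difference was 1.04. EDIL3 did not pass in cells of low ribosomal share, CA10 in cells of high share, nor SCG2 in the 10th to 90th percentile of total UMIs.

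**Figure D1:**
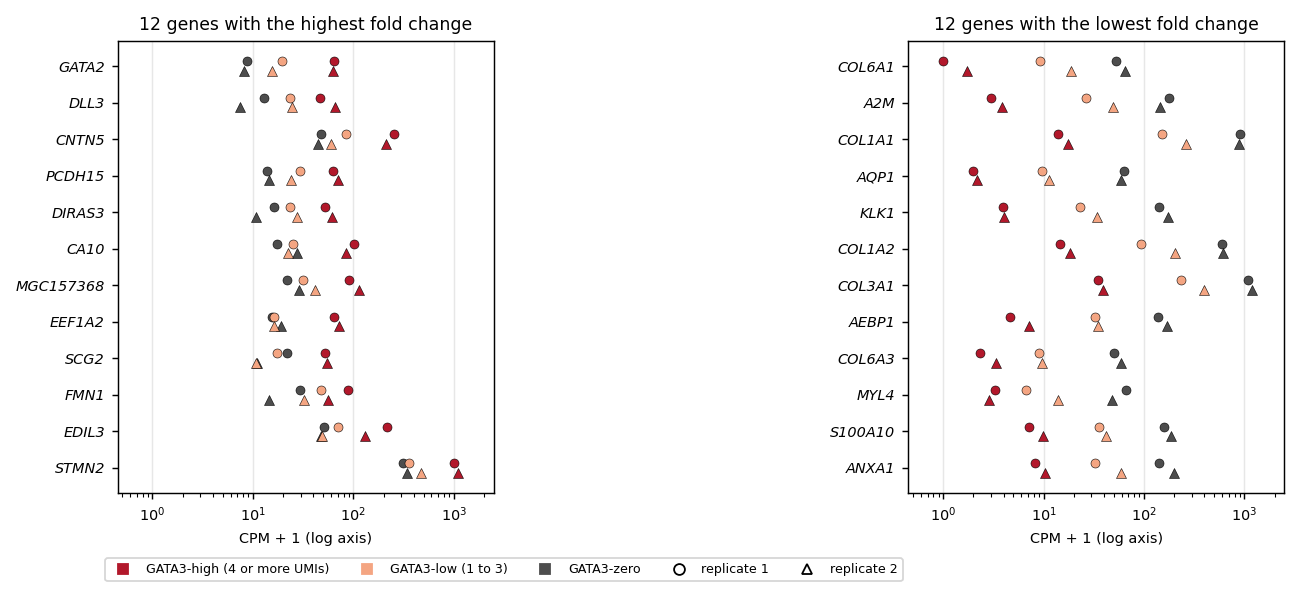
Levels of the 12 genes with the highest and the 12 with the lowest log2 fold change in GATA3-high against GATA3-zero cells, as CPM + 1 on a log axis, by class (colour) and replicate (symbol). In the right panel the GATA3-low cells lie between the other classes for every gene, and in the left panel the GATA3-high cells are the highest for every gene.

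Of the neuron list, 9 of 14 tested genes were higher in members and 0 were lower, with a median log2 difference of 0.829 against 0.00221 over all genes tested. Besides STMN2 and DLL3, the bHLH factor HES6 (119 and 100 against 34.4 and 43.0 CPM) and the neuronal tubulin TUBB3 (261 and 315 against 112 and 122 CPM) were higher. So were DCX, ELAVL3, ELAVL4, MAP2 and SNAP25. In cells under 10% ribosomal protein counts 5 of these 9 genes passed, and DCX, TUBB3, MAP2 and DLL3 did not. MAP2, with a log2 difference of 0.155, also missed the threshold in DESeq2, without the block, with 1 to 1 matching, in the 10th to 90th percentile of total UMIs, at 3 or more GATA3 UMIs and among neural cells. The neuronal vesicle gene SYT1 stood at 597 and 617 CPM against 592 and 571 CPM and did not pass (edgeR adjusted p = 0.145). The intermediate filament gene INA missed the threshold at 171 and 139 CPM against 42.0 and 50.9 CPM (log2 difference 1.80, SE 0.348, edgeR adjusted p = 0.0578). RBFOX3 (log2 difference -0.081), NRXN3 (0.028) and GAP43 (0.336) did not pass either. NEUROG2 and NEUROD1, factors of neuron formation, were below 1 CPM in members. A separate list of synapse and axon guidance genes was mixed, with 7 of 32 higher, 6 lower and a median log2 difference of 0.0865.

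Of the neural progenitor list, 5 of 11 tested genes were higher and 0 lower, with a median log2 difference of 0.303. SOX1 stood at 53.7 and 55.0 CPM in members and 27.6 and 26.5 CPM in GATA3-zero cells (1.09, SE 0.129), and PAX6 at 140 and 105 against 86.9 and 72.6 CPM (0.684, SE 0.0900). SOX2 itself, a factor of neural stem cells, was at 250 and 300 CPM in members, 274 and 277 in GATA3-low and 235 and 232 in GATA3-zero cells. The log2 difference of members from GATA3-zero cells was 0.317 (SE 0.0762, edgeR adjusted p = 0.0039). This SOX2 difference did not pass in cells of high or of low ribosomal share taken alone, in the 10th to 90th percentile of total UMIs, nor without the block. HES5 and FABP7 were the other 2 genes that were higher. Neither passed with 1 to 1 matching, in the 10th to 90th percentile of total UMIs, in cells of high or of low ribosomal share, among neural cells or without the block, and HES5 did not pass in DESeq2. The list then had 3 higher genes of 11 with matching. In the 10th to 90th percentile it had 2 of 11, against 788 of all 12559 tested. SOX1 and PAX6 passed in each of these alternatives.

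GFP, a row of the deposited table, stood at 2031 and 2427 CPM in members, 1418 and 1412 in GATA3-low cells and 1721 and 1951 in GATA3-zero cells. Members were higher than GATA3-zero cells (log2 difference 0.355, SE 0.06, edgeR adjusted p = 0.000345). Among cells with 10% or more ribosomal protein counts the sign turned, to -0.07, and it did not pass among the neural cells (0.05). It did not pass either with 1 to 1 matching on total UMIs, in the 10th to 90th percentile of total UMIs, at 3 or more GATA3 UMIs, in members with no placental UMI or without the block. The part of the ribosomal share in the GFP level was not tested.

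Shares of cells with a UMI gave the same picture after each cell was thinned to 3000 UMIs. STMN2 was found in 48.0% and 48.8% of members, 25.5% and 21.3% of GATA3-zero cells and 0% and 5.26% of erythroid cells. SOX2 was found in 45.5% and 49.9% of members and 42.1% and 43.9% of GATA3-zero cells, and in 0% of erythroid cells. With so few erythroid cells the 0 allows a share of up to 33.3% in replicate 1 and 15.8% in replicate 2. GFP was found in 83.7% and 90.2% of members, 72.1% and 72.1% of GATA3-zero cells and 0% and 10.5% of erythroid cells. Thinning left out 13 and 26 members and 195 and 323 GATA3-zero cells. Unthinned, the members' shares were 60.0% and 60.8% for STMN2, 63.7% and 70.6% for SOX2, and 89.7% and 92.4% for GFP. In GATA3-zero cells they were 30.1% and 25.5%, 52.6% and 50.4%, and 76.6% and 70.5%, and in erythroid cells 11.1% and 21.1%, 0% and 10.5%, and 66.7% and 57.9%.

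All 8 tested genes of the sympathetic and chromaffin list were higher in members, with a median log2 difference of 1.55. TH, the rate-limiting enzyme of catecholamine synthesis, stood at 28.2 and 21.8 CPM against 2.27 and 1.79 CPM (3.68, SE 0.298, edgeR adjusted p = 8.16e-09). DBH, which turns dopamine into noradrenaline, stood at 37.0 and 29.6 against 3.98 and 1.99 CPM (3.60, SE 0.254, edgeR adjusted p = 1.10e-09). GATA3-low cells held TH at 4.11 and 5.37 CPM and DBH at 6.16 and 4.22 CPM, above GATA3-zero cells and below members in both replicates, and neither passed against GATA3-zero cells (edgeR adjusted p = 0.0546 and 0.185). The homeobox factor PHOX2A, essential in mice for noradrenergic neurons, stood at 31.8 and 22.3 against 7.39 and 3.78 CPM (2.39, SE 0.233).

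Further list members were HAND2 (log2 difference 1.45), ISL1 (1.62) and the granin CHGA (1.16). The same 8 were higher, and passed, when only neural cells were compared. ISL1 did not pass in DESeq2 or in cells of low ribosomal share, and 7 of the 8 passed in the 10th to 90th percentile of total UMIs. SLC5A7, the choline transporter of acetylcholine neurons and not a list member, stood at 38.3 and 30.3 against 5.68 and 2.79 CPM (3.14, SE 0.278, edgeR adjusted p = 1.49e-07). CHAT, the enzyme that makes acetylcholine, had no UMI in any member.

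Markers of the spinal interneurons that use GATA factors were sparse. TAL1, the partner of GATA2 and GATA3 in those cells, had 1 and 3 UMIs in members and 8 and 9 in GATA3-zero cells. GAD2, an enzyme of GABA synthesis, was lower in members, at 8.52 and 3.08 against 14.8 and 11.1 CPM (log2 difference -1.16, SE 0.334, edgeR adjusted p = 0.0151). Of the 6 tested genes of that list 2 were higher, GATA2 among them, and 3 did not pass. The neural crest factors SOX10 and FOXD3 had no UMI in members.

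HOX genes, which mark position along the body axis, were higher in members at the hindbrain end of the list and absent for most others. HOXB2 stood at 52.1 and 68.3 CPM in members and 30.7 and 31.6 CPM in GATA3-zero cells (1.04, SE 0.133, edgeR adjusted p = 4.82e-06). HOXA2 stood at 37.7 and 43.8 against 31.0 and 20.9 CPM (0.778, SE 0.169, edgeR adjusted p = 0.00205). Of 29 HOX genes, 20 and 17 had no UMI in members of replicates 1 and 2, against 3 and 5 in GATA3-zero cells of similar summed depth. HOXB8 had 0 and 1 UMIs in members and 13 and 15 in GATA3-zero cells. In all, 2 of 13 tested HOX genes were higher and 8 lower. Among neural cells 5 HOX genes were tested, of which 2 were higher and 0 lower.

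**Figure D2:**
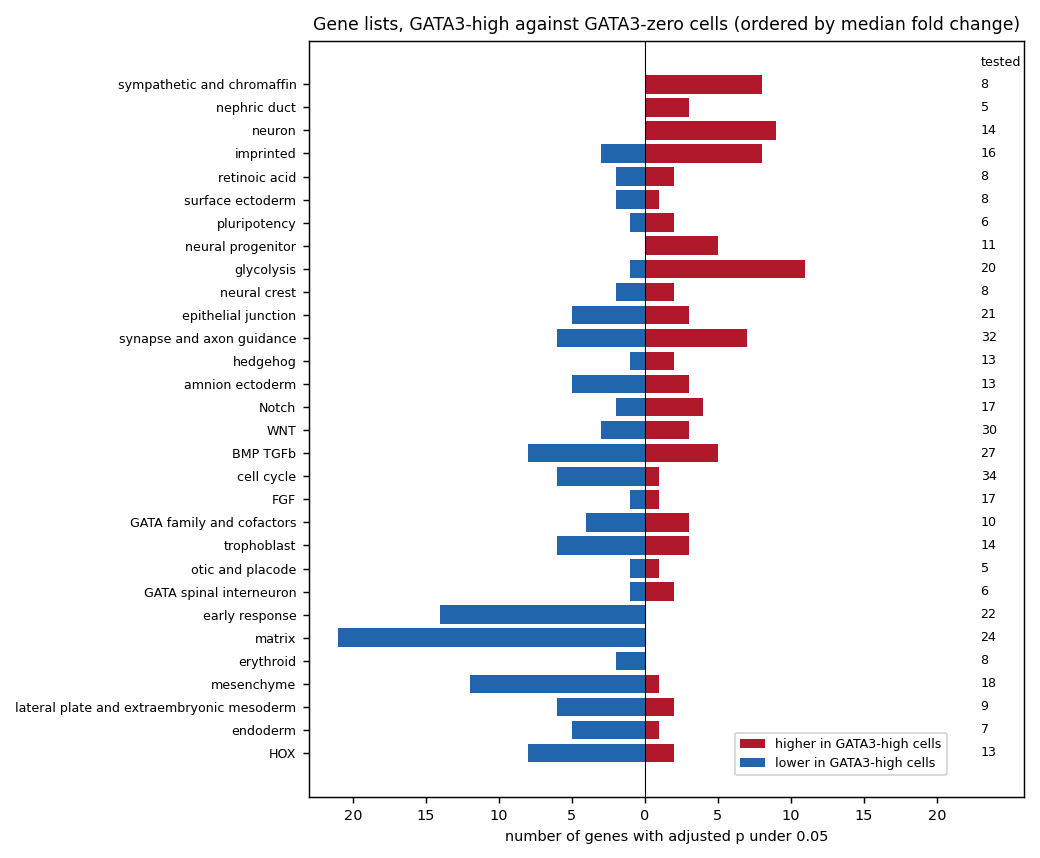
Number of genes with an edgeR adjusted p under 0.05 that were higher (red, to the right) or lower (blue, to the left) in GATA3-high than in GATA3-zero cells, for each list with 5 or more tested genes, ordered by the list's median log2 fold change; the number tested stands at the right. The sympathetic and chromaffin list had 8 of 8 genes higher, and the matrix list had 21 of 24 lower.

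Connective tissue genes were the other side of the contrast. Fibrillar collagen COL1A1 stood at 12.8 and 16.6 CPM in members, 149 and 259 in GATA3-low cells and 913 and 889 in GATA3-zero cells (log2 difference -5.87, SE 0.398, edgeR adjusted p = 0.0112). COL3A1 stood at 34.1 and 37.7 CPM in members and 1083 and 1185 CPM in GATA3-zero cells (-4.93, SE 0.243, edgeR adjusted p = 0.00145). COL6A1 had 0 and 3 UMIs in members and 182 and 319 in GATA3-zero cells, a ratio of 142-fold with a counting interval of 48.4 to 691. Here and below, counting intervals pool both replicates and treat UMIs as independent. They leave out spread between cells and between replicates and so are too narrow. COL1A1 held similar low levels in both replicates' members, and the CPM values of the classes did not overlap. Few GATA3-zero cells carried it. Unthinned, a COL1A1 UMI was found in 15.6% and 15.1% of GATA3-zero cells and in 8.68% and 12.3% of members. The tenth of GATA3-zero cells with the most COL1A1 held 98.9% of its UMIs in that class in each replicate.

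The other genes of this group were A2M, a protease inhibitor, the water channel AQP1, the protease KLK1, COL1A2, AEBP1, COL6A3, the myosin light chain MYL4, S100A10 and ANXA1. Their log2 differences ran from -5.92 to -4.30. In cells under 10% ribosomal protein counts 8 of the 12 lowest genes did not pass, though all 12 kept their sign. Among neural cells COL1A1, AQP1 and COL6A3 did not pass, and the COL1A1 difference was -1.72. Of the mesenchyme list 12 of 18 genes were lower and VIM was higher, with a median log2 difference of -1.75. Among neural cells 6 were lower and 2 higher, with a median of -0.71. Of the matrix list 21 of 24 were lower and 0 higher, against 7 lower and 1 higher of 23 among neural cells.

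Of the lateral plate and extraembryonic mesoderm list 6 of 9 tested genes were lower in members and 2 higher, HAND2 and ISL1. Among neural cells 2 of 7 were lower and 2 higher. GATA6 had 1 and 0 UMIs in members and 70 and 121 in GATA3-zero cells, a ratio of 163-fold with a counting interval of 28.8 to 6453. BMP4, a signal of lateral mesoderm, had 2 and 7 UMIs in members and 81 and 114 in GATA3-zero cells. APOA1, a plasma lipoprotein gene of yolk sac and liver endoderm, stood at 72.4 and 98.8 against 1652 and 1746 CPM (log2 difference -4.26, SE 0.327, edgeR adjusted p = 0.0164). APOA1 did not pass in the 10th to 90th percentile of total UMIs or in cells of low ribosomal share, where the difference was -1.87. Of the endoderm list 5 of 7 tested genes were lower and CXCR4 higher. In cells of low ribosomal share 1 of 7 was lower, and among neural cells 1 of 5, with 0 higher in both. Over all 12117 genes tested at low share, 586 were higher and 522 lower. AHSG, 1 of the 5 lower genes of the main comparison, rested on replicate 2. It stood at 0.328 and 4.74 CPM in members and 0.284 and 173 CPM in GATA3-zero cells.

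Of the trophoblast list 3 of 14 tested genes were higher (GATA2, KRT18 and PAG1) and 6 lower. KRT19, a keratin of simple epithelia, stood at 105 and 127 CPM in members against 598 and 795 CPM (log2 difference -2.51, SE 0.0693). Among neural cells KRT19 and KRT8 turned sign, to 0.17 and 0.70. The list's summed level was 836 and 857 CPM in members and 1482 and 1705 CPM in GATA3-zero cells. In members 6 and 5 of its 29 genes had no UMI, against 4 and 6 in GATA3-zero cells. PAG12, CSH2 and GCM1 had none in both classes and both replicates.

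Stress and immediate early genes, which respond within minutes to stimuli such as dissociation, were lower in members in 14 and higher in 0 of 22 tested. This was not particular to members, as 17 of the 22 were lower and 0 higher in GATA3-low than in GATA3-zero cells. FOSB stood at 24.2 and 18.5 CPM in members against 100 and 110 CPM in GATA3-zero cells (log2 difference -2.25, SE 0.137). Among neural cells 4 of 20 were lower and 0 higher. Glycolysis genes were higher in 11 of 20 and lower in 1 (PFKP), with ENO2, the neuronal enolase, at 64.2 and 65.6 against 26.1 and 26.1 CPM. Among cells of high ribosomal share 1 was higher and 4 lower, and among neural cells 3 were higher and 2 lower. Over all 11607 genes tested at high share, 1019 were higher and 1238 lower. Of the imprinted list 8 of 16 were higher, among them DIRAS3, the growth inhibitor CDKN1C (191 and 189 against 109 and 114 CPM) and SNRPN, and DLK1, PLAGL1 and IGF2R were lower.

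GATA3-low cells shared the GATA3-zero cells as controls, so their values can only be set beside those of members. There 1643 genes (12.6%) passed, 494 (3.78%) higher and 1149 (8.8%) lower. Among neural cells 1357 passed, 517 (4.2%) higher and 840 (6.82%) lower. In the comparison not limited to neural cells, none of the 8 sympathetic genes passed in either direction. Of the neuron list 4 of 14 were higher and 4 lower. Of the matrix list 1 of 24 was higher and 19 lower.

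By number of GATA3 UMIs, COL1A1 was 913 and 889 CPM at 0 UMIs, 301 and 415 at 1 and at most 137 from 2 UMIs on. GATA2 was 7.67 and 7.16 CPM at 0 UMIs, 16.2 and 19.9 at 3 and 121 in both replicates at 10 or more. STMN2 was 371 and 651 CPM at 3 UMIs, just outside the rule, 323 and 481 at 4, just inside it, and 2117 and 2053 at 10 or more. Median depth also went up along this order, from 4347 and 4341 UMIs to 9350 and 10188, and its part was not tested. PAX6 had its highest level, 194 and 179 CPM, at 3 UMIs and was 84.2 and 74.6 CPM at 10 or more.

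**Figure D3:**
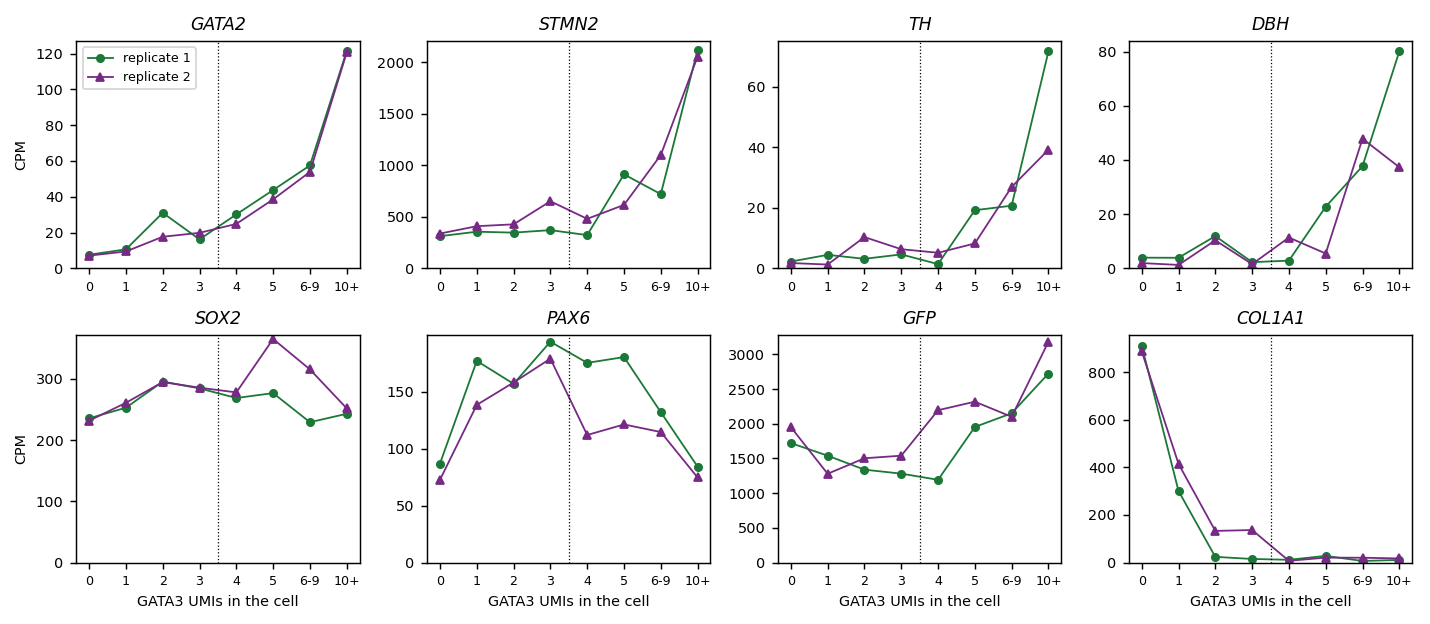
CPM of 8 genes in cells grouped by their number of GATA3 UMIs, within the members' range of total UMIs, for replicates 1 and 2 (lines); the dotted line marks the members' threshold between 3 and 4 UMIs. GATA2 and STMN2 are highest in cells with 10 or more GATA3 UMIs, at 121 and over 2000 CPM, and COL1A1 is highest in cells with none.

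The members were not uniform. SOX2 was absent in 138 and 146 members, had 1 UMI in 61 and 79, and 2 or more in 181 and 272. Members with 2 or more SOX2 UMIs were set against those with none, in the total UMI range that both shared (177 and 267 cells against 129 and 127). Of 10728 genes tested, 3074 (28.7%) passed in edgeR, 1371 (12.8%) higher and 1703 (15.9%) lower in SOX2-positive members. The ribosomal share moved with this split, at a median of 13.7% and 20.1% in SOX2-positive and 4.95% and 10.4% in SOX2-negative members, and its part was not tested.

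SOX2-positive members held more of the Notch pathway and of the cell cycle. HES5, a Notch target that keeps progenitors undifferentiated, stood at 118 and 131 CPM against 20.9 and 7.82 CPM (log2 difference 3.14, SE 0.254, edgeR adjusted p = 5.93e-10). HES1, another target, stood at 112 and 127 against 25.9 and 35.2 CPM (1.98, SE 0.190). The other named genes were ARSL, TAGLN, PTTG1 and ZFP36L1. Of the Notch list 10 of 16 tested genes were higher and 0 lower, and of the hedgehog list 7 of 12 and 0. Of the cell cycle list 28 of 34 were higher, among them TOP2A (187 and 183 against 107 and 110 CPM). The 1 that was lower was CCND1, at 106 and 143 against 400 and 334 CPM.

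SOX2-negative members held the sympathetic genes. TH had 1 and 0 UMIs in SOX2-positive and 85 and 77 in SOX2-negative members, a ratio of 319-fold with a counting interval of 56.4 to 12660. DBH stood at 0.656 and 2.84 CPM in SOX2-positive against 109 and 97.8 CPM in SOX2-negative members (log2 difference -5.61, SE 0.332, edgeR adjusted p = 4.67e-16). SLC5A7 stood at 0 and 3.25 against 115 and 107 CPM. PHOX2A, WFDC2 and TAFA2 completed the 6 named genes. In all 7 of 8 tested sympathetic genes were lower in SOX2-positive members, the exception being ISL1, which did not pass.

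Of the neuron list 12 of 14 were lower in SOX2-positive members, such as INA at 35.4 and 24.8 against 412 and 438 CPM, and HES6 was higher. GATA2 did not follow this split. It stood at 76.8 and 56.9 CPM in SOX2-positive and 47.9 and 65.5 CPM in SOX2-negative members (log2 difference 0.225, SE 0.200, edgeR adjusted p = 0.452), with overlapping values. GFP was higher in SOX2-positive members, at 2688 and 2721 against 1308 and 1730 CPM (0.860, SE 0.162, edgeR adjusted p = 6.73e-05).

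**Figure D4:**
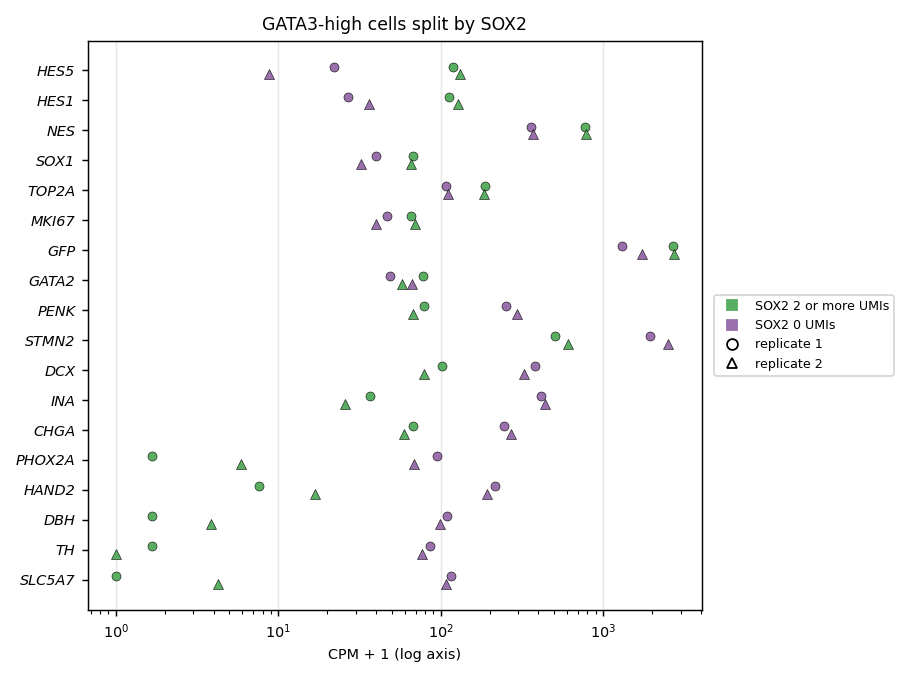
Levels of selected genes in GATA3-high cells with 2 or more SOX2 UMIs (green) and with none (purple), as CPM + 1 on a log axis, by replicate (symbol). HES5 and HES1 are higher in the SOX2-positive members, the sympathetic genes from CHGA to TH and SLC5A7 are higher in the SOX2-negative ones, and the GATA2 values overlap.

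Within members, 2 small sets of cells stood out by transmitter genes. Both were picked after the values were seen and are described with no test. The first was 36 and 52 members with a UMI of TH or DBH, or 9.47% and 10.5% of members. Of these, 24 and 38 also had PHOX2A, a gene the choice did not use. HAND2 stood at 661 and 504 CPM in them, 14.2 and 15.2 CPM in other members and 36.1 and 20.3 CPM in GATA3-zero cells. PHOX2A stood at 257 and 200 CPM against 6.56 and 3.15 CPM in other members. SLC5A7 stood at 326 and 273 CPM against 6.19 and 4.20 CPM.

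Every cell of this first set had STMN2, and its level was 3638 and 3860 CPM. SOX2 stood at 29.3 and 70.6 CPM there, against 275 and 324 CPM in other members. RET, the receptor for glial neurotrophic factors, had 14 of 16 and 13 of 27 of its member UMIs in the set. SLC6A2, the noradrenaline transporter, had 0 and 3 UMIs, and SLC18A2 4 and 3. DDC stood at 22.8 and 24.4 CPM, beside 29.1 and 25.5 CPM in other members.

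The second set was 13 and 16 members with 2 or more UMIs of PENK, the precursor of enkephalin peptides. PENK stood at 187 and 147 CPM over all members and 1.70 and 1.99 CPM in GATA3-zero cells, but did not pass (log2 difference 6.52, SE 1.18, edgeR adjusted p = 0.0758). PENK passed in DESeq2, at 6 or more GATA3 UMIs and in cells of high ribosomal share. GATA3-low cells held 185 and 31 PENK UMIs, with at most 155 and 11 in 1 cell. The highest members had 142 and 104 PENK UMIs, so PENK-rich cells were not confined to members and sums leaned on single cells. The 13 and 16 cells of the set held 563 of the 571 and 613 of the 619 PENK UMIs of members. GATA2 was found in 8 of 13 and 13 of 16 of them, and TH or DBH in 1 of 13 and 0 of 16.

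Serotonin genes stood at higher levels in these PENK cells than in other members, but most UMIs of several of them lay elsewhere. TPH2, the enzyme that commits a neuron to serotonin, had 11 of its 12 member UMIs in replicate 1 and 10 of 11 in replicate 2 there, in 3 and 6 cells. SLC6A4 had 10 of 18 and 17 of 24 of its member UMIs there and stood at 93.0 and 131 CPM, against 2.72 and 1.71 CPM in other members. SLC6A4 was not confined to members, as GATA3-zero cells held 23 and 38 of its UMIs, at 6.53 and 7.56 CPM. TPH2 had 2 and 5 UMIs in GATA3-zero cells. SLC18A2 was at 195 and 261 CPM against 11.2 and 8.56 CPM, with 21 of 54 and 34 of 69 of its member UMIs in the set. GATA3-zero cells had SLC18A2 at 6.82 and 11.3 CPM. These genes were picked for their known role after their values had been seen.

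DDC, which completes serotonin synthesis, stood at 270 and 192 CPM in the PENK cells against 19.7 and 20.1 CPM in other members. The set held 29 of 87 and 25 of 107 of the members' DDC UMIs. LMX1B was at 74.4 and 184 against 19.4 and 18.6 CPM, with 8 of 65 and 24 of 100 UMIs in the set. In GATA3-zero cells DDC stood at 2.84 and 7.76 CPM and LMX1B at 5.68 and 4.38 CPM. FEV had 3 and 2 UMIs there, of 8 and 7 in members, too few to place. HOXB2 was at 140 and 138 against 48.9 and 66.0 CPM. Other genes that led the PENK set were SCG2, at 670 and 699 against 28.2 and 33.5 CPM, the homeobox gene SHOX2, the serpin SERPINI1, and RELN. STMN2 was found in 13 of 13 and 14 of 16 of these cells.

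**Figure D5:**
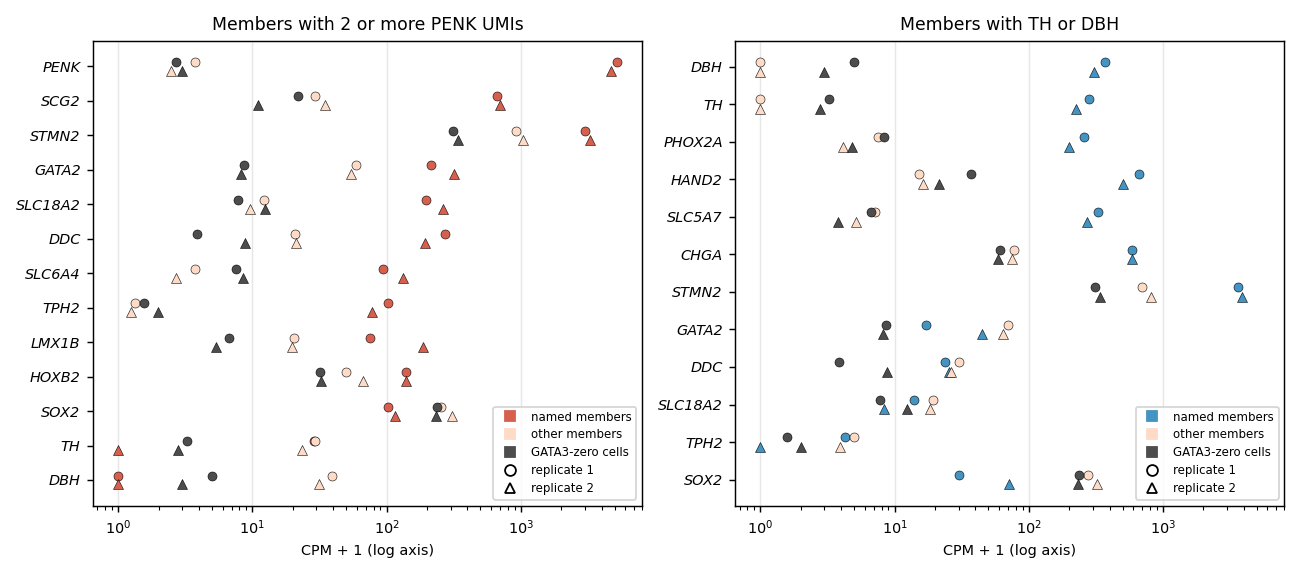
Levels in members with 2 or more PENK UMIs (left, 13 and 16 cells) and in members with TH or DBH (right, 36 and 52 cells), beside other members and GATA3-zero cells, as CPM + 1 on a log axis, by replicate (symbol). TPH2, SLC6A4 and DDC are highest in the PENK cells, while PHOX2A, HAND2 and SLC5A7 are highest in the TH or DBH cells.

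GATA2 was found in 81 and 102 members, or 21.3% and 20.5%. Thinned to 3000 UMIs, it was in 13.9% and 10.6% of members, 2.79% and 1.64% of GATA3-zero cells and 0% of erythroid cells. Of these GATA2 cells 4 and 8 had TH or DBH, and 46 and 51 had 2 or more SOX2 UMIs. The gene that led them after GATA2 was LOC508098, at 1419 and 1973 CPM against 168 and 227 CPM in other members. Over all members LOC508098 stood at 460 and 605 CPM, against 34.4 and 81.6 CPM in GATA3-zero cells (log2 difference 3.26, SE 0.321, edgeR adjusted p = 0.0219). Among neural cells the adjusted p was 0.082. It also missed the threshold in the 10th to 90th percentile of total UMIs, at 3 or more GATA3 UMIs and in cells of high ribosomal share. LOC508098 was singled out after its values were seen.

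The GATA2 cells also held COL25A1, a transmembrane collagen of neurons, at 343 and 307 against 48.7 and 31.8 CPM, and the ventral neural factor NKX2-2 at 39.3 and 42.7 against 8.55 and 8.77 CPM. TAL1 had 0 and 3 UMIs in them, and GAD1 1 and 2. A further 45 and 80 members had 3 or more UMIs of KRT8, KRT18 and KRT19. SOX2 was found in 35 and 67 of those, and TFAP2C and CDX2 in 0. Lastly, 42 and 46 members had neither SOX2 nor STMN2, and their leading genes by ratio to other members included PLXNA2, JAG1 and YAP1.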

How the data were processed

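The deposited tables hold raw counts of UMIs by gene and by cell, whole numbers with no sign of normalization. Per the submitters' processing notes, Cell Ranger, R 4.1.2, Seurat 4.3.0 and the bosTau9 build were used; the annotation and the treatment of strand in counting are not stated there. The deposited cells had 201 to 3999 detected genes and at most 4.98% mitochondrial counts, and 11182089 and 15427708 UMIs in replicates 1 and 2 (medians 4889 and 5601 per cell). Of 17846 symbols, 17337 matched a RefSeq table of ARS-UCD2.0, used for names only. Near-identical family members (PAG and PRP genes, globins) and genes with processed copies (KRT8, KRT18) are uncertain.

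Counts were summed per replicate and class and tested with edgeR 4.0.16 (R 4.3.3; TMM, filterByExpr, robust quasi-likelihood test, replicate as block, Benjamini-Hochberg adjustment over all genes tested, threshold 0.05). The 3 GATA3 classes shared 1 fit with 2 residual degrees of freedom and a median of 18.6 lent by other genes; the SOX2 fit had 1 and 35.7. Replicates pair the sums because the classes of 1 number come from 1 suspension. The 5 rule genes took no part in counts, nor SOX2 in its own split. On simulated data the GATA3 fit recovered 64% of 100 genes changed 2-fold and 100% of 100 changed 4-fold, with 3 false calls. The SOX2 fit recovered 50% and 90%, with 4. The simulated counts had the same preset dispersion for every gene and no difference between replicates. Only genes above a minimum mean count were changed. The rates therefore hold for that setting and do not give the power or error rate in these data. Scrublet (scanpy 1.11.5, rate 0.06) called 3 doublets, 2 of them members, so doublets were hardly assessed; they were kept.

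Named genes were the 12 highest and 12 lowest log2 fold changes (6 and 6 in the SOX2 split) among genes past the threshold at 50 CPM or more in the higher class and with 1 direction in both replicates, leaving out rule, GFP, mitochondrial, ribosomal protein, LOC and ENSBTAG genes; in each list, up to 4 passing genes at 20 CPM or more; and the neural lists. Other names were picked after their values were seen. Leading genes of member sets were in 25% or more of the set's cells in both replicates and were ranked by the lower of the replicates' CPM ratios (pseudocount 20 CPM). Members, the 34 lists and tests were chosen with earlier results of these data known. Some genes of the lists are counted but not reported here by name.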

Additional observations from a re-analysis of the deposited data

How the results depend on the processing

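Every class rests on 2 suspensions of 1 group, and members were deeper and richer in ribosomal protein counts than the cells they were set against. The fit with no replicate block called 1424 genes in members against GATA3-zero cells, 383 in GATA3-low cells and 2250 in the SOX2 split; the cause of the lower counts was not tested. Over members against GATA3-zero cells, DESeq2 called 1198, the 10th to 90th percentile of total UMIs 1550, cells with 10% or more ribosomal protein counts 2257, cells under 10% 1108, and, chosen after seeing the data, 1 to 1 matching on total UMIs 2157 and neural cells 1638. In GATA3-low cells DESeq2 called 500 and cells under 10% ribosomal protein counts 178; in the SOX2 split DESeq2 called 803. The planned matching of 2 GATA3-zero cells per member took all 1594 of them and so changed nothing. Leaving out a replicate left no residual degrees of freedom, so it gave fold changes with no test.

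Among named genes, signs turned for GFP (-0.0746), HES5 (-0.0392) and GAPDH (-0.0335) in cells of high ribosomal share. They turned for BUB1 (0.0907) and IGF2R (0.11) in cells of low share, for HHIP at 6 or more GATA3 UMIs (-0.21), and for AHSG without replicate 2 (0.24, against -5.10 without replicate 1). Among neural cells they turned for MAP2 (-0.085), KRT19 (0.17), KRT8 (0.70), TCF7L1 (0.0235), DHRS3 (0.19) and IGF2R (0.16). The 12 highest genes kept their sign under each alternative in which they were tested, as did the 12 lowest and the 8 sympathetic genes. The members' share was 26.7% and 28.1% at 3 or more GATA3 UMIs, 10.7% and 11.6% at 6 or more, and 21.5% in replicate 1 at 1000 or more detected genes. Mean shares of members with a UMI, unthinned and thinned to 2000 UMIs, were 67.2% and 36.3% for SOX2 and 60.4% and 42.6% for STMN2, and 80.1% for GFP at 2000. In GATA3-zero cells they were 51.5% and 33.3% for SOX2 and 73.5% and 62.7% for GFP, and 27.8% unthinned for STMN2.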
